A study of Gallus gallus with 30 samples.

Results

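The comparison was the control electroporation: otocysts that had received a plasmid coding for the red fluorescent protein mRFP1 and no Notch component, set against the otocyst on the other side of the same embryo. It held 6 of the 30 otocyst libraries of the series, chosen by the treatment label mRFP1 and the embryo number, from embryos 4, 23 and 24. All 3 were White Leghorn chicken (Gallus gallus) embryos. The right otic placode was electroporated in ovo at embryonic day 2 with pCAB-IRES-mRFP1 (the study's plasmid list names the backbone pCAG), and both ears were taken 24 h later, at embryonic day 3, and freed of mesenchyme. The left otocyst was not transfected. Electroporation, the plasmid and the side of the body therefore cannot be told apart in these pairs. The study sequenced 3 strongly transfected ears with their partners. Electroporation reaches only some cells of an otocyst, and the share reached was not measured here. The other sets of the series, each with 3 pairs, tested NICD1, the intracellular domain of chicken NOTCH1, after 6 h and 24 h, and the γ-secretase inhibitor LY411575 in culture after 6 h and 24 h.

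The otocyst is the epithelial vesicle from which the inner ear develops. Notch is a receptor whose intracellular domain is cut free after contact with a ligand of the Delta or Jagged family on a neighbouring cell, enters the nucleus, and with RBPJ switches on genes such as those of the HES and HEY families. In the otocyst it is known for the choice between neurons and other fates and for the specification of sensory patches. The control pair asks how far transcripts of an electroporated otocyst differ from those of its partner when no Notch activity is added.

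Each library was 1 otocyst. The 3 mRFP1 libraries held 11492595 to 12758833 estimated counts and the 3 untransfected ones 14690912 to 15700058, and 20344 to 21243 against 21541 to 21620 transcripts had at least 1 estimated count. Libraries 4R and 24R stood apart from their partners, with TMM scaling factors (edgeR's correction for library composition) of 0.93 and 0.85 against 1.00 and 0.98, while those of embryo 23 were 1.01 on the right and 1.02 on the left. Results are given below with embryo 23 as the only pair where that bears on them. The plasmid's own mRFP1 transcript was not analysed here. Defining transcripts of the otic epithelium were present in all 6 libraries, all 7 of the list, among them LMX1A, a LIM homeodomain factor of the otic epithelium, at 277, 141 and 62.7 normalised CPM in the left and 191, 153 and 111 in the right otocysts of embryos 4, 23 and 24, and SOHO-1 at 375, 239.8 and 304 and 367, 202 and 648. Normalised CPM are estimated counts scaled to a common library size with the TMM factors. They are used for every level below that is not given as summed TPM or as estimated counts. They are not divided by transcript length, so levels are compared between libraries and never between genes. Values in a row are for embryos 4, 23 and 24, in this order.

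No transcript passed the test. By edgeR's quasi-likelihood test with the embryo as a term, 0 of 21637 transcripts tested had a Benjamini-Hochberg adjusted p under 0.05 (0.0%), and the smallest adjusted p, 0.403, was shared by 526 transcripts. At an unadjusted p under 0.05 there were 2042 transcripts (9.44%), 1147 of them higher in mRFP1 otocysts (5.3%) and 895 lower (4.14%). Their median absolute log2 fold change was 0.46, and 80 of the higher and 212 of the lower ones passed a fold of 2. Limma-voom also called 0. DESeq2, on the same design, called 543 of the 21637 (2.51%), of which 349 were higher and the others lower, and gave an adjusted p for 11150. The unadjusted count rested on embryos 4 and 24: it was 902 without replicate 4, 1030 without replicate 24, and 725 with embryo 23 as the only mRFP1 pair. By limma on log2(TPM + 0.5) the split was 159 higher and 2368 lower, and the median over all transcripts moved by -0.15 (log2) from the edgeR fit. The parts of the scale and of the test in this were not tested. With each library's length trend removed it was 1406 and 496. Because each embryo had its own term, p-values measure the spread between embryos of the right to left difference. That spread was pooled over all 5 sets of the series, the inhibitor cultures included, and not taken from these 3 embryos alone. Percentages over all transcripts beside list counts below are those of the edgeR fit with all embryos.

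Gene symbols are known here for 812 transcripts, those that the study's supplementary tables pair with a name. Most entered those tables because they responded to Notch or Wnt manipulation, so this is a selected set. The study also listed genes as changed in this same control. Some symbols may therefore be known because the transcript differed in these same libraries, and how many was not counted. Counts among named transcripts are not independent evidence in that part. Of the 812, 58 had an unadjusted p under 0.05 and were higher in mRFP1 otocysts, and 85 were lower (all transcripts 5.3% and 4.14%). Under DESeq2, 39 of the 812 were called, 15 higher and 24 lower. Over all transcripts it called 543 (2.51%), most of them higher, but only 11150 had an adjusted p and could be called. How many of the 812 had an adjusted p was not counted, so the 2 shares cannot be compared. A difference in a bulk otocyst can mean other proportions of cells or another amount of RNA per cell, and these cannot be told apart here.

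Among named transcripts higher on the mRFP1 side, CXCL12 (ENSGALT00000066398.2), the chemokine that guides cells carrying the receptor CXCR4, had the smallest p. Its levels were 58.5, 43.5 and 35.5 normalised CPM on the left and 104, 71.7 and 53.4 on the right. Each right ear was above its own partner, which the choice of these transcripts required (same direction in 3 of 3 embryos). The log2 ratios were similar, at 0.83, 0.72 and 0.59, although the groups overlap because embryo 4 was higher on both sides. The fitted log2 fold change was 0.71 ± 0.12 (SE, 3 pairs; unadjusted p = 4.41e-05, edgeR adjusted p = 0.403, DESeq2 adjusted p = 2.37e-06). The estimated counts of 22 of the 85 transcripts named by rule, CXCL12, HEY1, NOTCH1 and PTPRF among them, were fractions in all 30 libraries. Kallisto there shared reads between similar or overlapping transcripts, and these values are less certain.

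CDKN1A, which codes for the cyclin-dependent kinase inhibitor p21, was scarce, at 3.76, 0.736 and 1.23 normalised CPM on the left and 6.28, 3.95 and 5.23 on the right. The 3 right ears lay above all 3 left ears, with a log2 fold change of 1.71 ± 0.40 (unadjusted p = 9.00e-04, adjusted p = 0.403), as they did for 3.15% of all transcripts. PPID, a cyclophilin that works with HSP90, had 244, 269.7 and 265 normalised CPM on the left and 320.0, 309.9 and 468 on the right, again without overlap, with a fold change of 0.47 ± 0.12. CHCHD4, part of the machinery that imports proteins into the space between the mitochondrial membranes, had 97.7, 136 and 149 on the left and 142, 152 and 264 on the right and a fold change of 0.51 ± 0.13. For both, the right ear of embryo 24 stood well above the others.

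The next transcripts by p had fold changes of 0.27 to 0.48. They were SMARCB1, a subunit of SWI/SNF chromatin remodelling complexes (0.34 ± 0.10), ADK, adenosine kinase (0.36 ± 0.10), CENPH, a kinetochore protein (0.46 ± 0.14), MRPS18A of the mitochondrial ribosome (0.36 ± 0.11), HARS, the histidyl-tRNA synthetase (0.33 ± 0.10), MAP1LC3B of the autophagosome membrane (0.27 ± 0.08) and GINS1 of the replicative helicase complex (0.48 ± 0.15). Their ratios were smallest in embryo 23 except for MRPS18A. All 7 had an adjusted p of 0.403.

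The 10 named transcripts with the smallest p on the lower side included LAMC1, NID1 and COL9A3. LAMC1, the γ1 chain of laminins, had 154, 71.9 and 67.7 normalised CPM on the left and 89.7, 46.3 and 46.8 on the right (-0.65 ± 0.16, unadjusted p = 0.00126). NID1, nidogen, which links laminin to collagen IV, had 185, 122 and 167 and 129, 89.7 and 78.3 (-0.69 ± 0.18). COL9A3, a chain of collagen IX, had 144, 148 and 91.2 and 85.6, 92.8 and 48.6 (-0.78 ± 0.21). In all 3 each right ear was below its own partner, which was again a condition of the choice. The smallest difference was a log2 ratio of -0.45 (NID1 in embryo 23). COL9A3 was singled out by the study on these same samples, so its value is not independent evidence. The adjusted p was 0.403 for each.

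Other lower transcripts code for membrane transporters and receptors. SLC16A1, the lactate and pyruvate transporter MCT1, had 694, 341 and 312 normalised CPM on the left and 411, 281 and 147 on the right (-0.71 ± 0.14, unadjusted p = 1.80e-04). SLC12A2, the sodium, potassium and chloride cotransporter NKCC1, had 161, 238 and 245 and 99.1, 172 and 159 (-0.59 ± 0.14). PTPRF, a receptor tyrosine phosphatase, had 236, 345 and 226 and 68.3, 291 and 108 (-1.03 ± 0.27), and its transcript of 7513 bases was the longest of the 10. Embryo 23 differed least in PTPRF, SLC16A1 and SLC12A2, with log2 ratios of -0.25, -0.28 and -0.46.

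LRP4, a receptor related to the LDL receptor that binds agrin and Wnt inhibitors, had a fold change of -0.96 ± 0.26. MCF2, a guanine nucleotide exchange factor, had -0.65 ± 0.16. SEMA3C, a secreted semaphorin that steers axons and migrating cells, had 54.3, 36.5 and 64.9 normalised CPM on the left and 33.6, 28 and 26.7 on the right (-0.78 ± 0.21). MEIS1, a homeodomain partner of HOX and PBX proteins, had 99.3, 158 and 118 and 70.4, 95.8 and 75.1 (-0.63 ± 0.17). For SEMA3C and MEIS1 the groups did not overlap, which held for 3.84% of all transcripts in this direction and for 3.15% in the other.

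**Figure D1:**
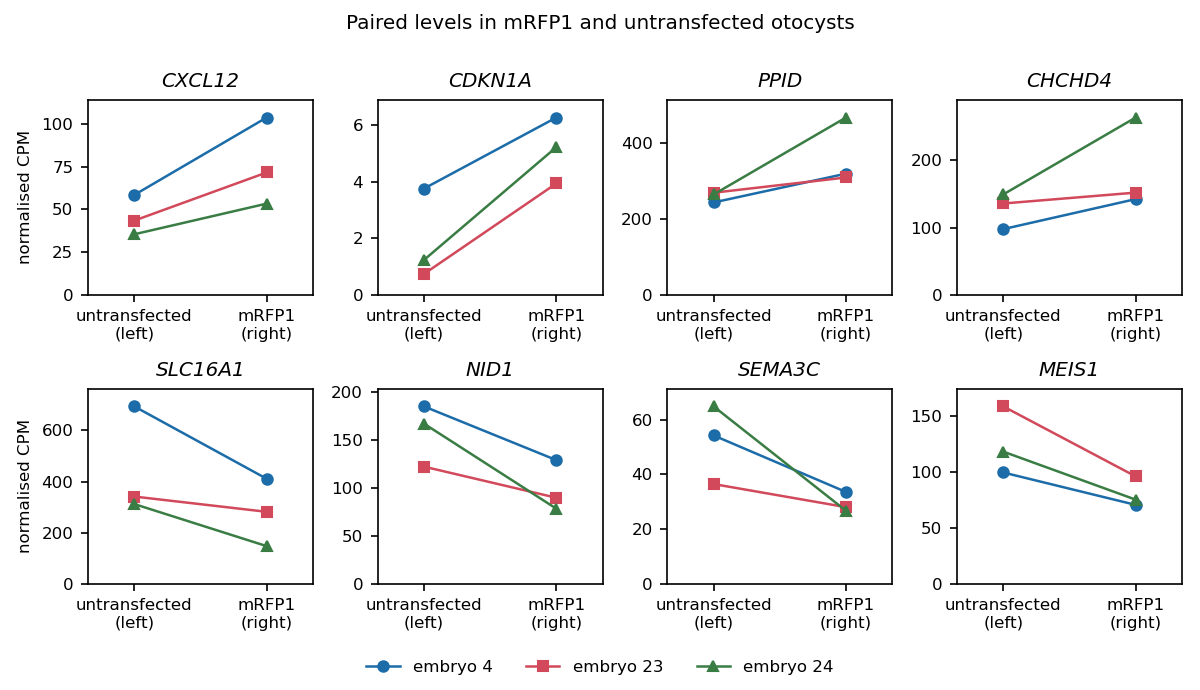
Normalised CPM (linear axis from 0) of 8 transcripts in the untransfected left and mRFP1 right otocyst of embryos 4, 23 and 24. Each line joins the 2 otocysts of an embryo, and every line slopes up in the upper row and down in the lower row.

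The Notch pathway list held 15 transcripts, all of which passed the filter. None was called, 2 had an unadjusted p under 0.05 and were higher (all transcripts 5.3%), and 4 were lower (all transcripts 4.14%). The median log2 fold change was -0.40, against -0.04 over all transcripts. With the length trend removed, 2 were higher and 1 was lower (all 21637 transcripts 1406 and 496) and the median was -0.25. By embryo the list medians were -0.59, -0.45 and 0.40, so embryo 24 went the other way. With embryo 23 as the only pair the list median was -0.46, and without replicate 4 it was -0.04.

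The ligand JAG2, of the Jagged type, had 87.7, 48.2 and 37.1 normalised CPM on the left and 48.5, 27.8 and 18.3 on the right. Each right ear was below its partner by a log2 ratio of -0.85, -0.79 and -1.02, and the ranges of the groups overlapped. The fold change was -0.89 ± 0.26 (unadjusted p = 0.00487, edgeR adjusted p = 0.403, DESeq2 adjusted p = 0.026), and with the length trend removed it was -0.67. JAG2 and NOTCH1 are also transcripts that the study marked as changed in this control on these same samples, and their values here are not independent evidence.

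DLL1, a Delta-type ligand found in nascent neuroblasts, had 15, 19.2 and 15.2 on the left and 7.31, 15.5 and 12.1 on the right (-0.55 ± 0.24, unadjusted p = 0.0409). JAG1, a ligand of the prosensory domains, had 94.6, 34.8 and 30.9 and 61.9, 30.2 and 45.2, lower in embryos 4 and 23 and higher in embryo 24 (-0.09 ± 0.21), and the sign turned without replicate 4 and with the length trend removed. LFNG, a glycosyltransferase that modifies Notch receptors and changes their response to ligands, had 188, 181 and 163 and 118, 110.2 and 125. The right ears all lay below the left ears for LFNG, with a fold change of -0.59 ± 0.31 (unadjusted p = 0.0815, adjusted p = 0.603).

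Of the receptors, NOTCH1 had 297, 343 and 186 normalised CPM on the left and 149, 347 and 149.9 on the right. The difference was largest in embryo 4, with log2 ratios of -0.996, 0.02 and -0.31 and a fold change of -0.43 ± 0.18 (unadjusted p = 0.0333, adjusted p = 0.478). NOTCH2 had 113, 171 and 137 and 75.2, 156 and 62.6, lower in each pair but by little in embryo 23 (-0.61 ± 0.22, unadjusted p = 0.0144). Both transcripts are long, 9865 and 9622 bases. RBPJ, the DNA-binding partner of the intracellular domain, had 13.1, 8.63 and 9.53 and 9.55, 9.67 and 3.79 (-0.52 ± 0.33), and its direction differed between embryos.

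Transcripts known as targets of Notch signalling split by embryo. HEY1 had 59.8, 4.01 and 11.9 normalised CPM on the left and 188, 2.78 and 63.5 on the right. It was higher on the mRFP1 side of embryos 4 and 24 and lower in embryo 23, where it was scarce on both sides (1.65, -0.50 and 2.40 on the log2 scale), and the fold change was 1.32 ± 0.58 (unadjusted p = 0.0404, adjusted p = 0.508). HES4 had 138, 54 and 59.6 and 201, 50.6 and 139 (0.56 ± 0.20, unadjusted p = 0.0146), HES1 had 50.8, 17.1 and 17.6 and 69.5, 8.2 and 33.7 (0.13 ± 0.33), and HEY2 had 3.7, 4.01 and 4.15 and 6.45, 3.87 and 5.74 (0.41 ± 0.35). Embryo 23 was the only embryo in which these 4 transcripts were lower on the right, and the sign of HES1 turned on TPM and without replicate 4 or 24.

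The HES5 group, repressors that act in lateral inhibition, had negative fold changes. HES5.1 had 79, 29.3 and 34.7 normalised CPM on the left and 29.7, 21.4 and 62.5 on the right (-0.34 ± 0.48), HES5.2 had 12.1, 7.89 and 12.5 and 8.52, 3.4 and 12.3 (-0.57 ± 0.44), and HES5.3 had 154, 72.4 and 93.5 and 70.1, 52.8 and 123 (-0.40 ± 0.36). All 3 were lower on the right in embryos 4 and 23, and in embryo 24 HES5.1 and HES5.3 were higher. Their estimated counts were fractions in 26 or 27 of 30 libraries, which shows that kallisto shared reads between similar transcripts, so the division among them is uncertain. NRARP, a feedback inhibitor induced by Notch, had 24.7, 4.42 and 7.39 and 22.3, 1.86 and 21.8, with ratios of -0.15, -1.19 and 1.54 and a fold change of 0.08 ± 0.47. The sign of NRARP's value turned on TPM, with the length trend removed and without replicate 24.

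**Figure D2:**
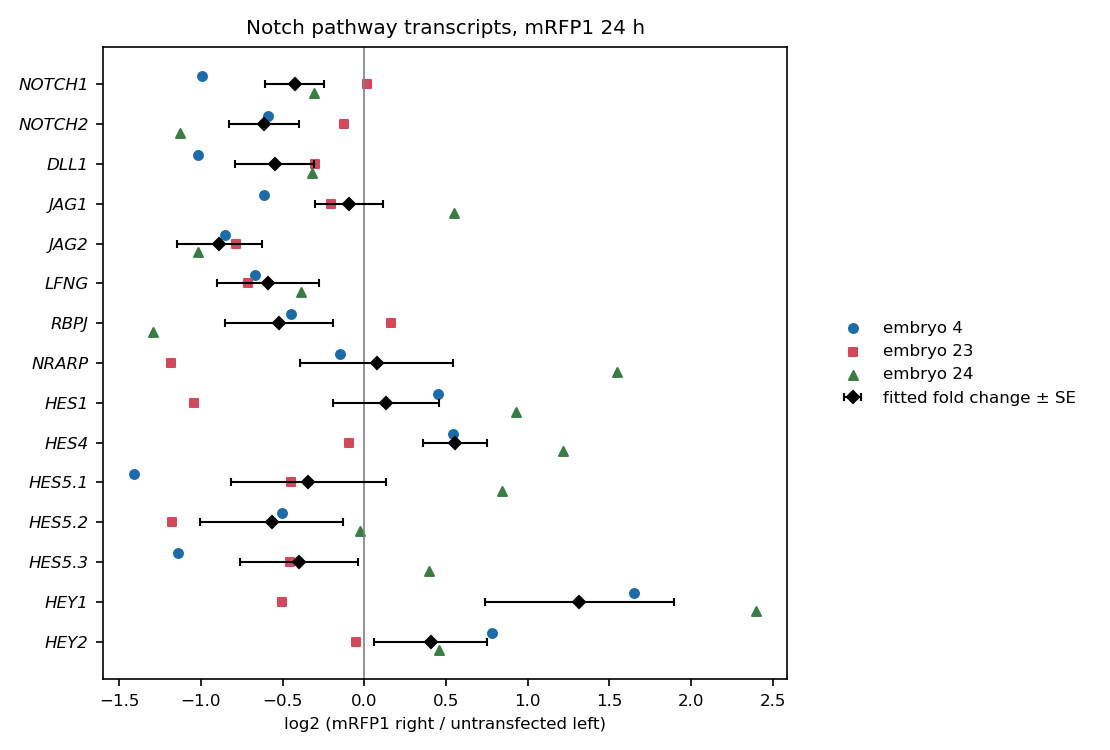
Log2 ratio of the mRFP1 right to the untransfected left otocyst for the 15 Notch pathway transcripts, with coloured symbols for embryos 4, 23 and 24 and black diamonds for the fitted fold change with its standard error. JAG2, LFNG, DLL1, NOTCH2 and, by only -0.02 in embryo 24, HES5.2 lie left of 0 in all 3 embryos (all transcripts 15.5%). HEY1 runs from -0.50 to 2.40.

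The response to the control plasmid was set against that to NICD1 after 24 h, in other embryos with their own left ears, by the contrast of the 2 terms in the same fit. Adjusted p was under 0.05 for 1 of 21637 transcripts (0.00462%), and 491 had an unadjusted p under 0.05 (2.27%). The HES5 transcripts lay on opposite sides of 0: HES5.2 was -0.57 ± 0.44 after mRFP1 and 2.14 ± 0.45 after NICD1, a difference of 2.71 ± 0.62 (unadjusted p = 8.73e-04). HES5.1 differed by 1.87 ± 0.67 (unadjusted p = 0.0157) and HES5.3 by 1.55 ± 0.51 (unadjusted p = 0.0104). NOTCH1 differed by 0.79 ± 0.25 (unadjusted p = 0.00805) and DLL1 by 0.92 ± 0.34 (unadjusted p = 0.0185). The NICD1 plasmid carries part of chicken NOTCH1, whose reads can count toward that transcript. The adjusted p was 1.0 for each of these 5.

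LFNG also lay on opposite sides of 0, at -0.59 ± 0.31 after mRFP1 and 0.17 ± 0.32 after NICD1. So did JAG1, at -0.09 ± 0.21 and 0.20 ± 0.21. The other members of the list, HEY1, JAG2 and NOTCH2 among them, had values on the same side after both plasmids. HEY1 was 1.32 ± 0.58 after mRFP1 and 0.95 ± 0.58 after NICD1, a difference of -0.37 ± 0.81. JAG2 was -0.89 ± 0.26 and -0.61 ± 0.26, a difference of 0.27 ± 0.37, and NOTCH2 was -0.61 ± 0.22 and -0.40 ± 0.21, a difference of 0.21 ± 0.30. These standard errors leave room for differences of some size in either direction. Of transcripts outside the pathway, CXCL12 was 0.71 ± 0.12 after mRFP1 and 0.07 ± 0.12 after NICD1, a difference of -0.64 ± 0.17 (unadjusted p = 0.002, adjusted p = 1.0). CDKN1A was 1.71 ± 0.40 and 0.28 ± 0.40, a difference of -1.43 ± 0.56 (unadjusted p = 0.0247, adjusted p = 1.0), and COL9A3 was -0.78 ± 0.21 and -1.05 ± 0.21. After NICD1 for 6 h, a shorter time in other embryos, CXCL12 was 0.56 ± 0.12 (unadjusted p = 3.95e-04, adjusted p = 0.755) and CDKN1A was 2.28 ± 0.40 (unadjusted p = 7.32e-05, adjusted p = 0.396), so both were also higher on the right in that set.

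**Figure D3:**
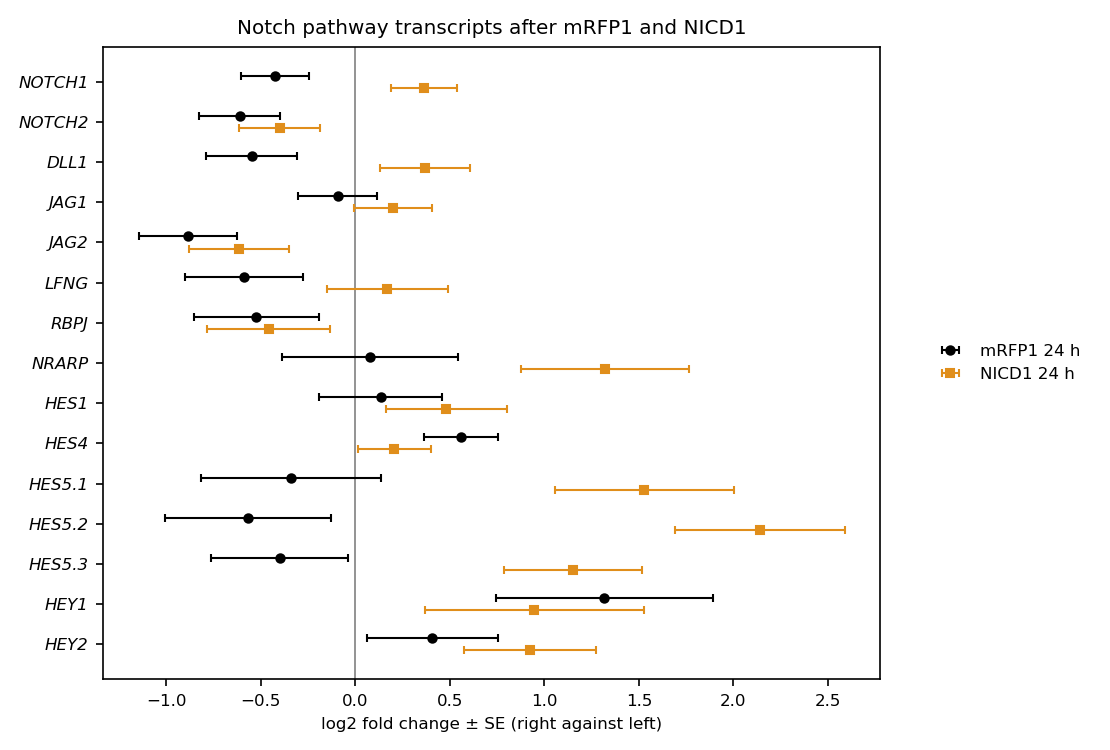
Log2 fold change with its standard error of the 15 Notch pathway transcripts, right against left otocyst, after mRFP1 (black circles) and after NICD1 (orange squares), both at 24 h with 3 pairs each. The 3 HES5 transcripts are left of 0 after mRFP1 and right of 0 after NICD1.

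In the Wnt pathway list, 17 transcripts were tested, 0 were called, 0 were higher and 3 were lower at an unadjusted p under 0.05 (all transcripts 4.14%), and 8 were lower in 3 of 3 embryos (all transcripts 15.5%). The list median was -0.20. Without replicate 4 and with the length trend removed, 1 was lower (382 of all 22233 and 496 of all 21637 transcripts), with medians of -0.10 and -0.20. LGR4, a receptor for R-spondins that strengthens Wnt signalling, had 147, 76.5 and 87.8 normalised CPM on the left and 83.5, 55.3 and 44.6 on the right (-0.75 ± 0.22, unadjusted p = 0.00494, adjusted p = 0.403). APCDD1, a membrane inhibitor of Wnt signalling, had 192, 148 and 61.5 and 87.9, 62 and 56.5, with the difference in embryos 4 and 23 (-0.84 ± 0.33). CTNNB1, β-catenin, differed little (-0.19 ± 0.09). FZD9, a Frizzled receptor, was scarce and had 0.67 ± 0.39. For it 3 of 3 right ears were above their partners (all transcripts 14.0%), by a log2 ratio of only 0.03 in embryo 23.

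The list of otic patterning and neurosensory factors held 27 transcripts. At an unadjusted p under 0.05, 0 were higher (all transcripts 5.3%) and 1, MEIS1, was lower (all transcripts 4.14%). Without replicate 23, 3 were higher, as were 1511 of all 22242 transcripts in that fit. Without replicate 24, 0 were higher and 4 were lower (430 and 600 of all 22270). In the 6 libraries alone, 3 of 26 were lower (584 of all 17969). With embryo 23 as the only pair the list median was -0.35. In the fit with all embryos the median was -0.10, with embryo medians of -0.06, -0.34 and 0.30. BMPER, a secreted regulator of BMP signalling, had 76.2, 37.4 and 26.6 normalised CPM on the left and 16.3, 7.35 and 83.5 on the right. It was several fold lower on the right in embryos 4 and 23 and higher in embryo 24 (-2.21, -2.32 and 1.65 on the log2 scale), and the fold change was -1.11 ± 0.79. MSX2, a homeodomain factor, was lower in each pair without overlap between the groups (-0.72 ± 0.45), and SOX4, a factor of neuronal differentiation, had 0.74 ± 0.42. LHX5 was listed at 0 in all 6 libraries.

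Transcripts of the immediate early and damage response included CDKN1A. Of 11 tested, 3 were higher (all transcripts 5.3%) and 0 lower (all transcripts 4.14%) at an unadjusted p under 0.05, and the median was 0.24. Leaving out any 1 of the 3 embryos gave 2 higher and 1 lower, with medians of 0.12, 0.064 and 0.29 without replicates 4, 23 and 24. Over all transcripts 520 of 22233, 1511 of 22242 and 430 of 22270 were higher in those fits, and 382, 1381 and 600 were lower. Limma on log2(TPM + 0.5) gave 1 higher and 1 lower (all 21637 transcripts 159 and 2368), with a median of 0.029 (all transcripts -0.19). CYR61, a matrix-associated protein induced by serum and by mechanical stress, had 30.3, 12.2 and 39.2 normalised CPM on the left and 155, 28.4 and 38.9 on the right, with the difference in embryos 4 and 23 (1.19 ± 0.51, unadjusted p = 0.0355). The transcript ENSGALT00000045592.3 of GADD45G, a stress and differentiation gene, had 27.5, 57.1 and 48.6 and 32.5, 73.3 and 105, mostly through embryo 24 (0.58 ± 0.21), and the other transcript of this gene had 0.01. BMF, a pro-apoptotic BCL2 family member, had -0.65 ± 0.37, and only embryo 24 was well below its partner. With embryo 23 as the only pair the median was 0.35.

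Stress chaperones differed in both directions. In the ER chaperone and unfolded protein response list, 0 of 14 were higher (all transcripts 5.3%) and 2 were lower (all transcripts 4.14%), SEL1L of ER-associated degradation (-0.47 ± 0.16) and the chaperone HSPA5 (-0.35 ± 0.14), and the median was 0.05. PDIA4, a protein disulphide isomerase, was higher in 3 of 3 embryos (0.26 ± 0.12), as was DERL3, of ER-associated degradation (0.29 ± 0.15). That held for 14.0% of all transcripts, and neither reached an unadjusted p under 0.05. All 4 cytosolic heat shock transcripts had positive fold changes, from HSPA8 (0.18 ± 0.18) to HSPB9 (0.56 ± 0.31), with BAG3 at 0.25 ± 0.12 and ZFAND2A at 0.36 ± 0.18, and none reached an unadjusted p under 0.05. HSPA8 had 1491, 2515 and 2699 normalised CPM on the left and 1127, 2666 and 4942 on the right, so that the right ear of embryo 24 stood above all others, and its sign turned on TPM and without replicate 24. With the length trend removed, the ER list had 4 higher and 1 lower (all 21637 transcripts 1406 and 496) and a median of 0.18. On TPM its median was -0.15, against -0.19 over all transcripts on that scale.

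Glycolysis and hypoxia response transcripts differed in opposite directions in different embryos. The medians over 10 transcripts were -0.65, -0.71 and 0.85 for embryos 4, 23 and 24, and -0.21 in the fit, with 0 higher and 2 lower at an unadjusted p under 0.05 (all transcripts 5.3% and 4.14%). Without replicate 24, 6 of 10 were lower (600 of all 22270 in that fit) and the median was -0.54. Without replicate 23, 0 were lower (1381 of all 22242) and the median was 0.067. Without replicate 4, 1 was higher (520 of all 22233), 0 were lower (382 of all 22233) and the median was -0.045. PFKFB3, which makes the activator of phosphofructokinase, had 88.4, 18.9 and 7.45 normalised CPM on the left and 51.6, 9.9 and 3.49 on the right, lower in each pair (-0.93 ± 0.40, unadjusted p = 0.039). P4HA1, a collagen prolyl hydroxylase subunit, had -0.53 ± 0.20, and SLC2A1, the glucose transporter GLUT1, had -0.22 ± 0.12. SLC16A3, the lactate exporter MCT4, had 1062, 72.3 and 48.4 and 566, 21.7 and 88.2 (-0.61 ± 0.47). LDHA, lactate dehydrogenase A, chosen after its values were seen, had 2502, 169 and 55.2 and 1587, 25.8 and 521. Both ears of embryo 4 held far more LDHA and SLC16A3 than any ear of the others, and the sides of embryos 23 and 24 differed in opposite directions.

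DNA replication and cell cycle transcripts had 5 of 23 higher (all transcripts 5.3%) and 1 lower (all transcripts 4.14%) at an unadjusted p under 0.05, and 12 were higher in 3 of 3 embryos (all transcripts 14.0%). The median was 0.09. By limma on log2(TPM + 0.5), 0 were higher and 1 was lower (all 21637 transcripts 159 and 2368), with a median of -0.11. The median over all transcripts in that fit was -0.19. With the length trend removed 8 were higher and 0 lower (all 21637 transcripts 1406 and 496), with a median of 0.25. PCNA, the sliding clamp of DNA polymerases, had 396, 567 and 604 normalised CPM on the left and 673, 596 and 742 on the right (0.38 ± 0.14). PBK, a mitotic kinase, had 0.43 ± 0.16, while TICRR, needed to fire replication origins and 6216 bases long, had -0.52 ± 0.18. Without replicate 4, 0 of 23 had an unadjusted p under 0.05 (520 of all 22233 transcripts were higher and 382 lower in that fit). Without replicate 24, 2 were higher (430 of all 22270). With embryo 23 as the only pair the median was 0.06.

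Ribosomal protein transcripts had positive fold changes in 14 of 14, as had 9791 of all 21637, and 2 of the 14 had an unadjusted p under 0.05 (all transcripts 5.3%). The 2 became 0 by limma on log2(TPM + 0.5), with the length trend removed and without replicate 4 or 24. Over all transcripts 159 and 1406 of 21637, 520 of 22233 and 430 of 22270 were higher in those fits. They became 9 without replicate 23, where 1511 of all 22242 transcripts were higher. The median was 0.27 in the fit and 0.05 on TPM (all transcripts -0.04 and -0.19), and by embryo it was 0.39, 0.03 and 0.38. RPS24 had 370.4, 337 and 377 normalised CPM on the left and 515, 363 and 544 on the right (0.37 ± 0.15), and RPL29 had 0.35 ± 0.16, RPS25 0.29 ± 0.14 and RPL31 0.28 ± 0.13. These are short transcripts, with a median of 603 bases, against 2244 over all transcripts. The mitochondrially encoded ND3 (0.24 ± 0.20) and ND5 (0.03 ± 0.16), subunits of respiratory complex I, did not reach an unadjusted p under 0.05. The same held for the 10 transcripts of cholesterol and fatty acid synthesis, whose lowest p belonged to the desaturase SCD (-0.42 ± 0.23), followed by FDPS (0.17 ± 0.16) and HSD17B7 (0.19 ± 0.21).

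Markers of other cell types were measured because the otocysts were freed of mesenchyme by hand. The 14 mesenchyme markers were present in all 6 libraries, and their summed TPM were 832, 677 and 888 on the left and 1164, 823 and 418 on the right. They were thus higher on the right in embryos 4 and 23 and lower in embryo 24. On normalised CPM the median log2 ratios had the same signs, at 0.63, 0.26 and -0.50. The fit on log2(TPM + 0.5) moved the median over all transcripts by -0.15. Differences in summed TPM can therefore differ in size from those on normalised CPM. ACTA2, smooth muscle actin, had 108, 20.8 and 75 normalised CPM on the left and 426, 54.1 and 48.5 on the right (0.94 ± 0.53), TAGLN, transgelin, had 1.22 ± 0.73, SNAI1, a factor of epithelial to mesenchymal transition, 0.44 ± 0.32, and COL5A2, a chain of collagen V, -0.54 ± 0.25. CYR61 and ACTA2 shared the pattern of a higher level in embryos 4 and 23 alone. The part of mesenchyme in the results was not tested.

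Neural crest and glia markers, which the otocyst epithelium shares in part (SOX10), summed to 489, 539 and 623 TPM on the left and 432, 581 and 286 on the right. ERBB3, a neuregulin receptor, had -0.59 ± 0.27, SOX10 had -0.15 ± 0.25 and FABP7, a fatty acid binding protein of glia, had -0.12 ± 0.56. Neuroblast markers summed to 4612, 5165 and 4227 TPM on the left and 5131, 4808 and 4258 on the right. Most of this was STMN1, a microtubule regulator, whose main transcript had 0.25 ± 0.14. In embryo 24 that transcript had 3721 TPM on the left and 3757 on the right, but 2076 and 2723 normalised CPM. The neuronal CRMP1 had -0.48 ± 0.34 and RTN1 -0.45 ± 0.37. NEUROD1 and NHLH1, members of this list chosen after their values were seen, differed most in embryo 23. NEUROD1 had 62.4, 56.6 and 40.6 normalised CPM on the left and 63.2, 11.6 and 71.6 on the right (-0.41 ± 0.54). NHLH1 had 19.3, 48.4 and 29.8 and 20.1, 16.4 and 26.1 (-0.56 ± 0.71). None of the 8 neuroblast transcripts reached an unadjusted p under 0.05.

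**Figure D4:**
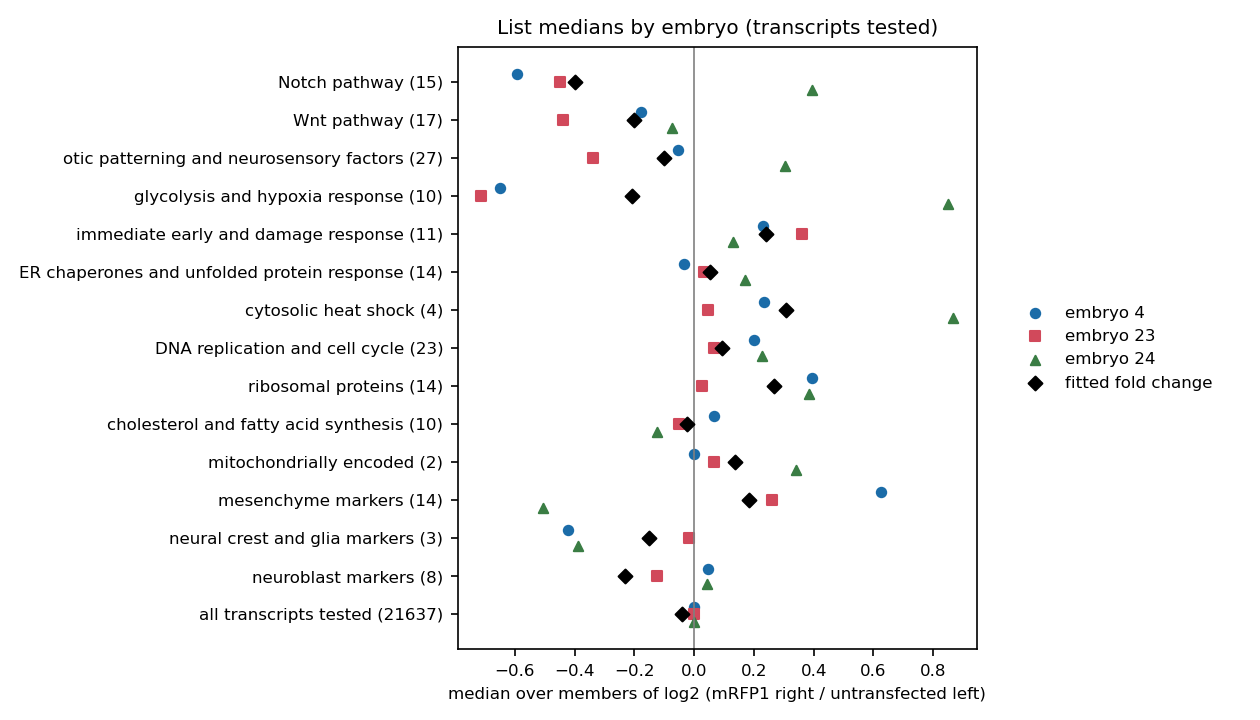
Median log2 ratio of mRFP1 right to untransfected left otocyst over the transcripts of each list, by embryo (coloured symbols) and as the median fitted fold change (black diamonds), with the number of transcripts tested in brackets. The 3 embryos lie on both sides of 0 for the Notch, glycolysis and mesenchyme lists, among others. All 3 lie right of 0 for the ribosomal, immediate early, cytosolic heat shock and DNA replication lists. They all lie left of 0 for the Wnt list and for the neural crest and glia list.

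How far the 3 embryos shared their differences was described over the 12456 transcripts with a mean of at least 5 normalised CPM. The log2 ratios of embryos 4 and 24 had a Pearson correlation of 0.22 and a Spearman correlation of 0.39 across transcripts, those of 4 and 23 had 0.04 and 0.13, and those of 23 and 24 had -0.05 and -0.08. Embryo 19 of the NICD1 24 h set was nearer to embryos 4 and 24 than embryo 23 was, with Spearman correlations of 0.44 and 0.46. Transcripts are not independent replicates, and pairs share trends with length and depth. Between 833 (embryo 23) and 1420 (embryo 24) of these transcripts differed by more than 2-fold between the ears of an embryo. Over all tested transcripts, 6381 had the same direction in 3 of 3 embryos (29.5%).

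The ratio moved with transcript length in embryos 4 and 24. The Spearman correlation of ratio and length was -0.37 in embryo 4, -0.45 in embryo 24 and -0.01 in embryo 23, and in the NICD1 24 h set it was -0.36, -0.05 and 0.09 for embryos 19, 21 and 22. The transcripts were put into 5 bins by length. In the shortest bin (99 to 1389 bases) the median fold change was 0.12, with 463 higher and 49 lower at an unadjusted p under 0.05, and in the longest bin (3517 to 25327 bases) it was -0.27, with 30 higher and 450 lower. Several lower transcripts named above, such as NOTCH1, NOTCH2, PTPRF, LRP4 and LAMC1, belong to the longest bin. The part of length in their values was not tested beyond the fit without the trend.

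**Figure D5:**
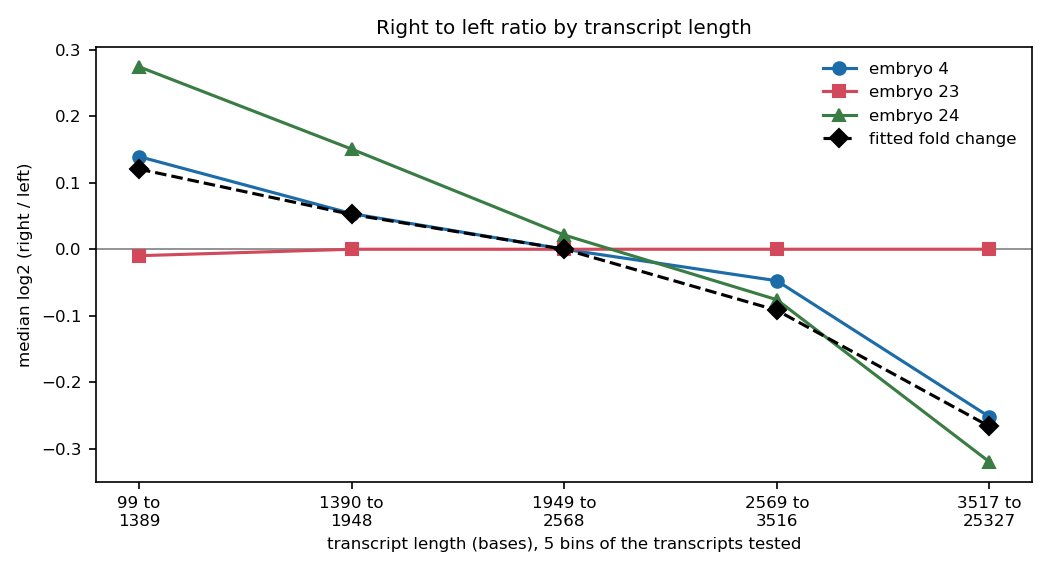
Median log2 ratio of mRFP1 right to untransfected left otocyst in 5 bins of the tested transcripts by length (bases), for each embryo and for the fitted fold change. Embryos 4 and 24 run from above 0 in the shortest bin to -0.25 and -0.32 in the longest, and embryo 23 stays near 0.

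Transcripts that were higher or lower after mRFP1 at an unadjusted p under 0.05 mostly had the same sign in the NICD1 24 h set, whose animals are different. Of the 1147 higher ones, 977 (85.2%) were also higher on the NICD1 side, and of the 895 lower ones, 724 (80.9%) were also lower, while 46.6% of all transcripts were higher there. Over the 12456 transcripts with a mean of at least 5 normalised CPM, the fold changes of the 2 sets had a Pearson correlation of 0.20 and a Spearman correlation of 0.38. Both sets share the right side, the electroporation, the mRFP1 cassette and, in some libraries, the trend with length.

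The 4 transcripts without a symbol were also chosen for the same direction in 3 of 3 embryos. Of these, ENSGALT00000025568.7 was lower on the right in each pair by nearly the same ratio (-1.32, -1.28 and -1.33 on the log2 scale). It had 19.1, 23.9 and 19.3 normalised CPM on the left and 7.57, 9.75 and 7.59 on the right (-1.32 ± 0.23, unadjusted p = 8.08e-05). ENSGALT00000011071.6 was also lower without overlap (-1.18 ± 0.24, unadjusted p = 3.05e-04), and ENSGALT00000002480.7 was higher without overlap (0.66 ± 0.13, unadjusted p = 2.00e-04). ENSGALT00000104658.1 had 0.50, 0.0017 and 0.53 estimated counts on the left and 108, 66.2 and 159 on the right. Against a floor of 3 counts per library this is at least 48.6-fold, 25.4-fold and 83.9-fold higher, and its unadjusted p was 1.07e-04. After NICD1 for 6 h the same transcript was far lower on the right (-7.78 ± 1.28, unadjusted p = 3.87e-04, adjusted p = 0.755). The log2 ratios there were -5.11, 0.0 and -7.32 in embryos 12, 13 and 15. After NICD1 for 24 h the fold change was 0.04 ± 1.06, so the rise was not shared by the other electroporated sets. The counts of this transcript, of ENSGALT00000025568.7 and of ENSGALT00000011071.6 were fractions in all 30 libraries. Kallisto can move reads as a block between overlapping transcripts, so these 3 values are uncertain. After mRFP1 the adjusted p of all 4 was 0.403.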

How the data were processed

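RNA was taken from single otocysts, and cDNA was made with SMART-Seq v4 and Nextera XT, which keep no strand, so that antisense partners cannot be told apart. Per the submitters' processing notes, bcl2fastq, kallisto and the build GRCg6a were used. kallisto's version was not given in the sources used here. For each library 1 table was deposited by the authors, with 28756 transcripts, their length, estimated counts (not normalised) and TPM (scaled by length and depth). Here the deposited estimated counts were rounded and tested with edgeR 4.0.16 (R 4.3.3): TMM, filterByExpr with a minimum count of 10, estimateDisp, robust glmQLFit and glmQLFTest over all 30 libraries, with 15 embryo terms and 1 treatment term per set (10 residual degrees of freedom), a threshold of 0.05 and Benjamini-Hochberg adjustment over 21637 transcripts. The standard error is the log2 fold change divided by the root of F. Levels of single transcripts are printed as normalised CPM in place of the planned TPM, because that scale moved the median of all transcripts. Sums over cell type markers are in TPM.

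The otocysts of an embryo share the animal, which is where the pairing comes from. Their deviations from group means correlated at 0.34, 0.28 and 0.15 in embryos 4, 23 and 24, and with another embryo's at up to 0.20, 0.27 and 0.16. Libraries of a group differed by more than sampling noise (the smallest chi-square was 28.3 times its degrees of freedom). Alternatives used DESeq2 1.42.0, limma 3.58.1 (voom, and log2(TPM + 0.5)), other filters, size factors and samples.

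Symbols came from the study's supplementary tables by transcript, with JAG1 and HEY2 matched by equal TPM in all 30 libraries. Named were all Notch pathway members, the 4 members with the smallest p of each other list, the 10 named transcripts with the smallest p in each direction (same direction in 3 of 3 embryos, at least 5 CPM) and 2 without a symbol in each direction. The values of 1 transcript so chosen are not reported here. Members and lists were chosen with earlier results of these data known. Genomic positions and sequences were not analysed here.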

Additional observations from a re-analysis of the deposited data

Results flagged for a closer look

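ENSGALT00000092788.1, a transcript without a symbol of 7845 bases, was the only one called in edgeR's test of the difference between NICD1 and mRFP1 after 24 h. It was chosen because it was this 1 call. After mRFP1 it had 44.1, 72.7 and 23.1 normalised CPM on the left and 15.6, 42.5 and 7.9 on the right, lower in each pair (-1.25 ± 0.28 on the log2 scale). In the NICD1 embryos 19, 21 and 22 it had 60.4, 38.9 and 84.7 on the left and 154, 305 and 479 on the right, higher in each pair (2.28 ± 0.28). The difference was 3.53 ± 0.39 (edgeR's quasi-likelihood test, adjusted p = 0.0174). Its adjusted p was over 0.05 in the fit without replicate 4 (0.225), 24 (0.182), 21 (0.0973) and 22 (0.113), where the difference stayed between 3.20 and 3.43, and over all alternatives it ranged from 1.05e-15 (DESeq2) to 1.0 (no replicate block). After NICD1 for 6 h this transcript was also higher on the right (2.11 ± 0.27, edgeR unadjusted p = 4.18e-06, adjusted p = 0.0747). Its estimated counts were fractions in all 30 libraries, so reads were shared with other transcripts. Whether reads from the NICD1 plasmid counted toward it was not tested.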

How the results depend on the processing

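The count of 0 transcripts called after mRFP1 stayed 0 in each alternative except DESeq2, with 543, and embryo 23 as the only mRFP1 pair, with 2. Leaving out each replicate gave 0 to 0. At an unadjusted p under 0.05 the 2042 transcripts became 1242 with no replicate block, 1151 in the 6 libraries alone and 725 with embryo 23 as the only pair, and 902 to 2892 when each replicate was left out. All counts at an unadjusted p other than the main one, and those with embryo 23 alone, were added after seeing the data. For the difference between NICD1 and mRFP1, the 1 call became 31 with DESeq2, 2 with embryo 23 as the only pair and 0 with no replicate block, in the 18 in ovo libraries alone and on log2(TPM + 0.5), and 0 to 2 when a replicate was left out. At an unadjusted p under 0.05 its 491 became 1066 with DESeq2 and 769 on log2(TPM + 0.5), and 371 to 975 when a replicate was left out. The causes were not tested.

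Of 85 named fold changes, DESeq2 called 26, against 543 of all 21637 transcripts, of which 11150 had an adjusted p. Apart from the Notch pathway members, the 85 were named for a small p in this same comparison, so a larger share was fixed by the choice. Signs turned in 3 with the length trend removed, in JAG1 (0.10), NRARP (-0.036) and SOX10 (0.014). On log2(TPM + 0.5) they turned in NRARP (-0.14), HES1 (-0.10), HSPA8 (-0.022), FDPS (-0.036), HSD17B7 (-0.022) and ND5 (-0.17). The median over all transcripts was -0.19 in that fit. With embryo 23 as the only pair, 18 turned: NOTCH1 0.011, RBPJ 0.16, NRARP -1.25, HES1 -1.06, HES4 -0.10, HEY1 -0.53, HEY2 -0.060, SOX4 -0.11, ZFAND2A -0.000873, HSPB9 -0.015, SCD 0.020, FDPS -0.068, HSD17B7 -0.39, COL5A2 0.27, SNAI1 -0.037, SOX10 0.21, the main STMN1 transcript -0.051 and RTN1 0.093. Leaving out a replicate turned the sign in 9, whose values ran for JAG1 from -0.41 to 0.18, for NRARP from -0.67 to 0.68, for HES1 from -0.29 to 0.68, for HES5.1 from -0.94 to 0.21, for BMF from -1.21 to 0.056, for HSPA8 from -0.16 to 0.49, for HSD17B7 from -0.027 to 0.46, for ND5 from -0.051 to 0.17 and for FABP7 from -0.66 to 0.44. With no replicate block none of the 85 turned.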
